A study of Drosophila melanogaster with 4 samples.

Results

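The origin recognition complex (ORC) was mapped along chromosome arm 3R in salivary glands of Drosophila melanogaster. ORC2 is one of the subunits of ORC, the complex that binds DNA and loads the replicative helicase at places where replication can start. The members described here are the 1475 regions that the authors' combined list places on 3R, of 6587 regions in the whole list, and they were chosen by chromosome arm alone. Support came from the peaks on 3R in each library, 1787 in replicate 1 and 2312 in replicate 2. Both libraries are labelled SuUR mutant and were made by chromatin immunoprecipitation with a rabbit polyclonal antibody to ORC2. They came from glands of wandering larvae of the third instar (L3). The strain is given as the SuUR mutant kept by the Orr-Weaver lab, outcrossed 3 times, with transposon and GFP entered as its tags. The 2 chromatin extractions gave 1 library each, and whether the extractions used different animals is not stated. The labels also describe wild-type (Oregon-R) entries, an ORC2 immunoprecipitate and an input. Neither was analysed here, and every value below describes libraries labelled mutant. Each wild-type entry is named after the same extraction as a mutant library, and whether it served as the control of the peak calling is not stated. Sequencing depth is unknown, since the lists give positions and scores without reads.

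Salivary gland cells copy their DNA repeatedly without dividing, and the copies stay aligned as polytene chromosomes. In such cells certain blocks of the chromosome arms, many of them late replicating, are normally copied fewer times than the rest. SuUR, the Suppressor of Underreplication, is a chromatin protein known to be needed for this, and loss of the gene lets replication proceed through many of these blocks. Long stretches with few ORC binding sites are of interest in this setting because a fork that starts outside such a stretch has far to travel. Arm 3R begins at its centromeric end in the coordinates used here, so low positions are proximal and high positions lie towards the telomere.

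On 3R the combined list reached from ORC3821, at 3R 12541 to 13400, to ORC5295, at 3R 27893715 to 27894423, and all positions are in FlyBase release 5.1. With the arm taken to end at its last peak (27.9 Mb), this gave 52.9 regions per Mb (95% exact Poisson interval 50.2 to 55.6) and 2.99% of the arm covered. The first region scored 3.37 in replicate 1 and 5.30 in replicate 2, where the score is the authors' peak score and has no stated unit. The last region scored 2.32 and 2.37 in replicates 1 and 2. Nearer still to the centromeric end, replicate 1 had a peak of 58 bp at 308 to 365 (score 2.10) without a partner in replicate 2. The other 4 large arms (2L, 2R, 3L and X) together held 54.7 combined regions per Mb, and the density ratio of 3R to them was 0.967 (0.912 to 1.03; exact conditional test of 2 Poisson rates, two-sided, p = 0.264, adjusted p = 0.317 over 6 tests). The difference in density was therefore not detectable in the combined list. These intervals and tests cover counting error only and treat regions as independent, although neighbouring regions cluster.

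Within the arm the regions were unevenly spread, and both libraries rose and fell together. Across the 28 bins of 1 Mb (the last one shorter), the combined list held between 32 and 82 regions per bin, with a median of 49.5. Replicate 1 ranged from 38 to 101 peaks per bin and replicate 2 from 57 to 117. The fullest bin was 5 to 6 Mb, with 82 combined regions from 101 replicate 1 and 117 replicate 2 peaks. Next came 1 to 2 Mb, with 80 combined regions, and by 20 to 21 Mb, with 70. The emptiest bins were 23 to 24 Mb, with 32 combined regions, 3 to 4 Mb, with 33, and 24 to 25 Mb, with 35. As a description over 28 bins, peak numbers in replicates 1 and 2 had a Spearman's rho of 0.94, and the bins share sequence composition and any unmappable stretches. Over the 279 windows of 100 kb the rho was 0.92. Windows with 10 or more combined regions numbered 40 of 279 (14.3%), and together they held 520 regions, or 35.3% of those on the arm. After 3R 12000001 to 12100000, with 22 regions, the fullest windows were 1400001 to 1500000 and 10500001 to 10600000, with 19 each. The latter rested on 21 replicate 1 and 31 replicate 2 peaks. At the other end, 30 windows had no combined region and 18 of them had no peak in either library.

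**Figure D1:**
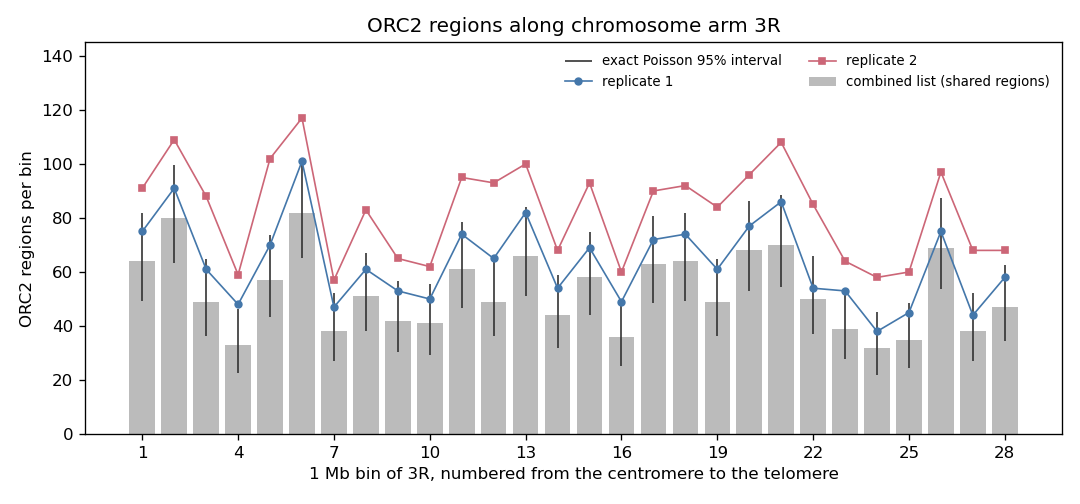
ORC2 regions on 3R in 1 Mb bins numbered from the centromere to the telomere. Bars give the combined list with its exact Poisson 95% interval, circles replicate 1 and squares replicate 2. The bars run from 32 (bin 24) to 82 (bin 6), and replicate 2 lies above replicate 1 in every bin.

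The 2 Mb at the centromeric end were dense, but the density stopped short of 2 Mb. They held 144 combined regions, or 72.0 per Mb (60.7 to 84.8), against 51.4 per Mb on the rest of 3R, a ratio of 1.40 (1.17 to 1.66). Replicate 1 had 166 peaks there (ratio 1.33, 1.12 to 1.56) and replicate 2 had 200 (ratio 1.23, 1.06 to 1.42). The ratio was 1.22 (0.934 to 1.57) for the first 1 Mb and 1.19 (0.873 to 1.58) for regions that reached the median combined score of the series, and both intervals included equality. This stretch was picked out with its density known, so the ratios are given as a description without a test. Of the 144 regions, 142 lay in the first 17 windows of 100 kb, which end at 1.7 Mb and thus held 83.5 regions per Mb. The last 3 windows held 2 regions, with 2 peaks of replicate 1 and 3 of replicate 2.

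Inside the dense part the windows held between 1 and 19 combined regions. The fullest was 3R 1400001 to 1500000, with 19 combined regions (23 peaks in replicate 1, 27 in replicate 2), followed by 1100001 to 1200000 with 13. Both replicates put their largest number of peaks in the same window. The dense part was interrupted once, between 304875 and 425318, by 120 kb without a combined region, in which replicate 1 had no peak and replicate 2 had 3. The share of peaks with a partner was higher here than on the rest of 3R in replicate 2. There 74.0% of 200 peaks overlapped a replicate 1 peak (95% exact binomial interval 67.3 to 79.9), against 63.8% on the rest of the arm. In replicate 1, 91.6% of 166 peaks were shared (86.3 to 95.3), against 88.7% elsewhere. Combined regions are made of shared peaks, so these shares are not independent of the density for which the stretch was picked. Regions in these 2 Mb had a median width of 384.5 bp, compared with 452 bp on the rest of the arm. Of the 144, 12 (8.33%) were at least 1 kb wide, against 13.1% of the combined regions over the whole arm. Median scores of the 144, 1.70 in replicate 1 and 2.12 in replicate 2, differed little from 1.71 and 2.20 on the rest.

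Directly beyond the dense part lay 3 long gaps in a row. From 1688269 to 2169694, a span of 481 kb, the combined list held only 2 regions, ORC3963 and ORC3964. ORC3963, at 1833119 to 1834401 (1283 bp), scored 1.87 in replicate 1 and 2.15 in replicate 2, with peaks of 1254 and 1261 bp. ORC3964, at 1996489 to 1996747, scored 4.39 and 5.67. Its replicate 1 peak was 3 bp wide, inside a replicate 2 peak of 259 bp, so its place in the combined list rests on 3 shared bases. The last of the 3 gaps, 1996748 to 2169694, held the highest-scoring peak of replicate 2 on 3R that replicate 1 lacked. This peak, Rep2_ORC6230 at 2064829 to 2065122 (294 bp, score 8.34), ranked 8 among all replicate 2 peaks of the arm. It is named because of its score, as are the other unshared peaks given by identifier below.

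The stretch from 12 to 13 Mb was not evenly dense but consisted of 2 clusters with a sparse interior. In all it held 66 combined regions (66.0 per Mb, 51.0 to 84.0), against 52.4 per Mb on the rest of 3R, a ratio of 1.26 (0.969 to 1.61). Replicate 1 gave a ratio of 1.29 (1.02 to 1.61) and replicate 2 one of 1.22 (0.985 to 1.49). The interval included equality in the combined list and in replicate 2. The window 3R 12000001 to 12100000 alone held 22 regions, the most of any window on the arm, from 28 replicate 1 and 27 replicate 2 peaks. Without it, the other 9 windows held 48.9 regions per Mb. The window 3R 12800001 to 12900000 held 14 combined regions, from 17 replicate 1 and 15 replicate 2 peaks. Together these windows held 54.5% of the regions of the stretch. Between them, from 12.2 to 12.8 Mb, 6 windows held 16 combined regions, 19 replicate 1 peaks, 36 replicate 2 peaks and a gap of 105 kb, 12590070 to 12695048.

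The clusters at the ends of that stretch differed in the shape of their regions. In the first window the median region was 687.5 bp wide and the regions covered 16.7% of the sequence. The window from 12800001 had a median width of 291.5 bp. The window contained ORC4516, at 12803763 to 12803912 (150 bp), which had the highest combined score on 3R, with 6.23 in replicate 1 and 11.3 in replicate 2. The first window contained the run ORC4473 to ORC4482, 10 regions within 21.9 kb, none more than 5 kb from the next. On the distal side the stretch ended in a gap of 225 kb, 12977941 to 13203297, with no replicate 1 peak and 1 replicate 2 peak.

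**Figure D2:**
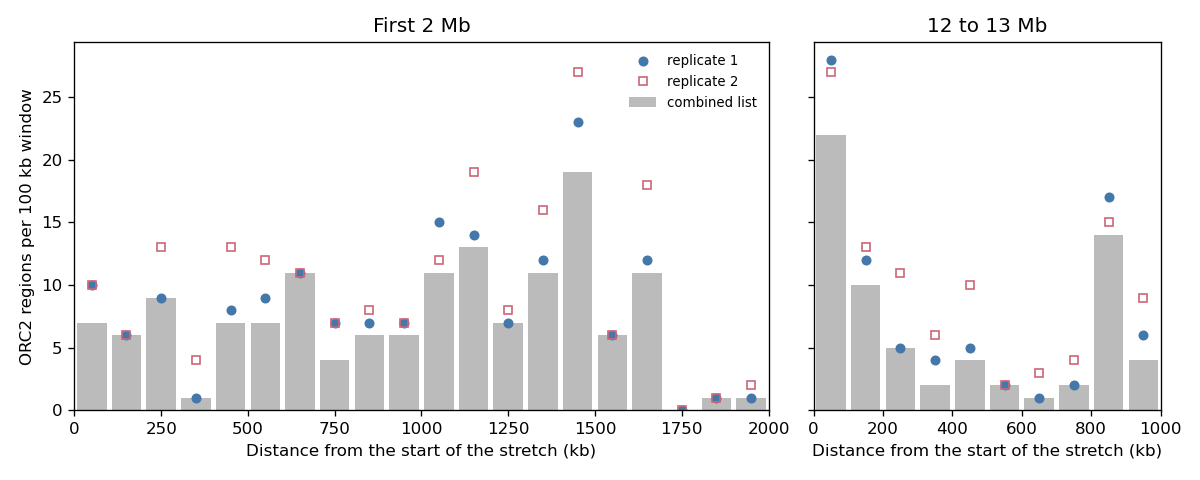
Regions in each 100 kb window of the first 2 Mb of 3R (left) and of 12 to 13 Mb (right), by distance from the start of the stretch in kb. Bars give the combined list, filled circles replicate 1 and open squares replicate 2. On the left 142 of 144 regions lie before 1.7 Mb, and on the right the first window (22) and the ninth (14) stand above the 8 others (1 to 10).

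Runs of closely spaced regions were common but short. The median distance between neighbouring regions of 3R was 6418 bp, with quartiles of 2131 and 19501 bp, against a mean of 18.3 kb, and the distances ranged from 27 to 367777 bp. Of 1474 distances, 638 (43.3%) were 5 kb or less. Joining regions at most 5 kb apart gave 341 runs of 2 or more and left 496 regions (33.6%) alone. Runs of 5 or more numbered 29 and held 186 regions (12.6%). The longest were ORC4168 to ORC4178, at 5902461 to 5926633, with 11 regions from 14 replicate 1 and 12 replicate 2 peaks, and ORC4555 to ORC4565, at 13525595 to 13545291, also with 11 regions, from 12 replicate 1 and 15 replicate 2 peaks. The first began with ORC4168, a region of 245 bp with scores of 6.87 and 10.5 in replicates 1 and 2. The run ORC4473 to ORC4482, at 12046788 to 12068706, came next with 10 regions. Regions in runs of 5 or more had a median width of 532.5 bp, against 417 bp for regions alone. Their median scores were 1.68 and 2.24 in replicates 1 and 2, against 1.78 and 2.27 for regions alone.

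Gaps of at least 100 kb between neighbouring combined regions made up 28.1% of 3R. There were 48 of them, between 101 and 368 kb long (median 146 kb), and they added up to 7.83 Mb. Outside them the arm held 73.5 regions per Mb. A further 94 gaps were between 50 and 100 kb long and took up 6.25 Mb. Replicate 1 alone gave 48 gaps of at least 100 kb (27.6% of the arm) and replicate 2 alone gave 43 (22.6%). The gaps of both libraries coincided over 6.20 Mb, which was 80.6% of the gap length of replicate 1 and 98.1% of that of replicate 2. Both lists enter the combined list, so this is a description of agreement and not an independent check.

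Few peaks were called inside the gaps, and most of those came from replicate 2. The same was true of unshared peaks over the whole arm, with 816 in replicate 2 and 197 in replicate 1. The 48 gaps held 13 unshared peaks of replicate 1 and 67 of replicate 2, or 1.66 and 8.56 per Mb. Outside the gaps the unshared peaks numbered 9.17 and 37.3 per Mb. In 37 gaps replicate 1 had no peak, in 14 replicate 2 had none, and in 13 neither had any. Counting every peak of both lists, 41 of the 48 still held an uninterrupted 100 kb without a peak and 47 held 50 kb. The longest gap with no peak of either library was 16153910 to 16337849 (184 kb). Unshared peaks in gaps had median widths of 87 bp in replicate 1 and 97 bp in replicate 2. They were not narrower than all unshared peaks of the arm, which had medians of 64 and 89 bp. Median scores of the unshared peaks in gaps were 1.42 and 2.02.

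The 10 longest gaps covered 2.44 Mb, 31.2% of the gap length, and 7 of the 10 began beyond 12 Mb on this arm of 27.9 Mb. Most of all 48 gaps did as well, since number 21 from the centromere was the first to begin there. The longest, 23783962 to 24151738 (368 kb), lay between ORC5106 and ORC5107 and enclosed 1 replicate 1 peak and 3 replicate 2 peaks. Its longest part without any peak measured 279 kb. The regions at its borders scored 1.83 and 1.70 (ORC5106) and 1.63 and 1.87 (ORC5107) in replicates 1 and 2. The next longest, 6719533 to 7022566 (303 kb), enclosed a single peak, called in replicate 2. It ran from ORC4223 (scores 2.06 and 4.23) to ORC4224 (3.71 and 4.48), so its borders scored above the arm's medians in both libraries. The gap from 3367201 to 3619540 (252 kb), in the bin with the second lowest number of regions, held 2 peaks of each library. Its borders, ORC4023 (2.61 and 3.12) and ORC4024 (2.48 and 4.14), also scored above those medians.

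The other 7 of these gaps were between 209 and 225 kb long. From the centromere outwards they were 9260900 to 9470394 (between ORC4327 and ORC4328), 12977941 to 13203297 (ORC4533 and ORC4534), 15861968 to 16078035 (ORC4671 and ORC4672) and 17959737 to 18182148 (ORC4798 and ORC4799). They continued with 18620004 to 18838024 (ORC4831 and ORC4832), 23114892 to 23327563 (ORC5083 and ORC5084) and 23532614 to 23748451 (ORC5100 and ORC5101). The scores at these borders ran from 1.37 (ORC5083) to 3.56 (ORC4831) in replicate 1 and from 1.53 to 7.41 in replicate 2, at the same regions. None of the 10 longest was free of replicate 2 peaks, 6 were free of replicate 1 peaks, and 9 kept at least 100 kb without any peak. The gap from 18620004 began beside ORC4831, with scores of 3.56 and 7.41, and ended beside ORC4832, with 1.54 and 2.09. Across all 48 gaps, the 92 regions that border one had median scores of 1.85 in replicate 1 and 2.29 in replicate 2. The other regions of 3R had medians of 1.70 and 2.18. Median widths were 421 and 446 bp. These are medians without a test.

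**Figure D3:**
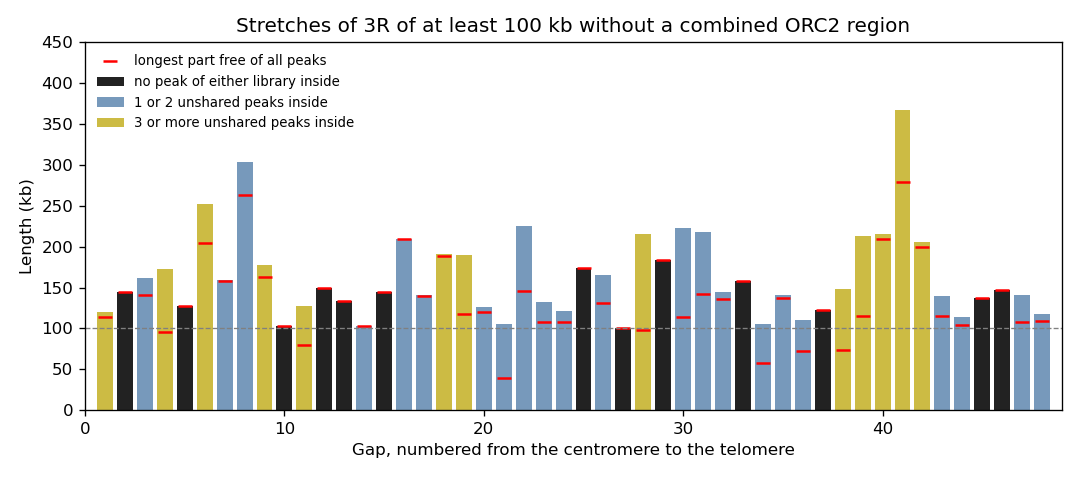
Length in kb of the 48 stretches of 3R of at least 100 kb without a combined region, numbered from the centromere to the telomere. Bar colour gives the number of unshared peaks inside (none in 13 gaps), the red marks give the longest part free of every peak of both libraries, and the dashed line marks 100 kb. The longest bar, number 41, measures 368 kb, and 41 of the 48 red marks lie at or above 100 kb.

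Gaps took the largest share in the distal part of the arm, though the difference between parts was modest and did not rise steadily towards the telomere. In 3 parts of equal length (9.30 Mb each), gaps made up 25.6% of the centromeric, 26.9% of the middle and 31.7% of the distal part, with 15, 15 and 18 gaps. Of gaps of 200 kb or more, 2, 4 and 5 lay in these parts. The combined regions numbered 507, 503 and 465. In the distal part, gaps were concentrated in one place. From 23114892 to 25283021, a span of 2.17 Mb, 7 gaps followed each other and made up 64.2% of the sequence. They held 1.39 of the 2.95 Mb of gaps in the distal part. The bins that start at 25, 26 and 27 Mb had 13.7, 28.9 and 13.1% of their length in gaps. The whole span held 66 combined regions, 80 replicate 1 peaks and 114 replicate 2 peaks. A high share of gaps was not limited to the distal part. Of the 28 bins, 3 had more than 50% of their length in gaps. They start at 23 Mb (64.5%), at 24 Mb (61.0%) and, in the middle part, at 15 Mb (57.7%).

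The regions left in this distal place were wider at the median and had lower median scores than the rest of the arm. From 23 to 25 Mb, a stretch chosen after its values were seen, there were 67 combined regions, or 33.5 per Mb (26.0 to 42.5), a ratio to the rest of 3R of 0.616 (0.475 to 0.787). Replicate 1 gave a ratio of 0.631 (0.4997 to 0.786) and replicate 2 one of 0.696 (0.574 to 0.838). The median region was 599 bp wide, against 432.5 bp elsewhere, and 19 of the 67 (28.4%) reached 1 kb, against 13.1% over the whole arm. Median scores were 1.57 in replicate 1 and 1.94 in replicate 2, against 1.71 and 2.20 on the rest of 3R. High scores occurred there as well. Of the 67, 7 were among the 147 highest-scoring of the 1475 regions of 3R, close to the share over the whole arm. One of the 7 was ORC5094, at 23482754 to 23482965 (212 bp), with scores of 5.82 and 11.5, the third highest combined score of the arm. Just beyond, the bin from 25 to 26 Mb again held 69 regions, and 97.3% of its 75 replicate 1 peaks were shared, the highest share of any bin. Over the 28 bins the number of regions and their median width had a Spearman's rho of -0.52, as a description of bins that share both libraries.

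Only 4 of the 1475 regions had a gap of at least 100 kb on both sides. They were ORC3963 and ORC3964, described above, ORC4305 at 8683035 to 8683564, and ORC4450 at 11491780 to 11491980. ORC4305 scored 2.30 in replicate 1 and 3.75 in replicate 2, with peaks of 221 and 530 bp. It lay 133 kb from ORC4304 (8549590 to 8549832), which had the fourth highest combined score of the arm, with 4.78 and 9.88. ORC4450 scored 1.88 and 2.24, with peaks of 42 and 201 bp.

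On 3R, 1590 of 1787 replicate 1 peaks (89.0%, 95% exact binomial interval 87.4 to 90.4) overlapped a replicate 2 peak by at least 1 bp. Over the whole replicate 1 list, all arms and scaffolds included, the share was 85.1%. On the other 4 large arms it was 85.8% (84.9 to 86.7), so the share on 3R was 3.17 percentage points higher (Fisher's exact test, two-sided, p = 0.00053, adjusted p = 0.000795 over 6 tests). It was above the share of each of the 4 arms, which ran from 84.3% on 3L to 87.5% on 2R. In replicate 2, 1496 of 2312 peaks on 3R (64.7%, 62.7 to 66.7) had a partner, against 63.1% over the whole list and 64.7% (63.7 to 65.8) on the other large arms (Fisher's exact test, two-sided, p = 0.980, adjusted p = 0.980). The tests of sharing treat peaks as independent, although neighbouring peaks cluster. The difference seen in replicate 1 depended on how a partner was defined. It was kept where at least 50% of each peak had to overlap (58.5% against 55.4%, Fisher's exact test, p = 0.0199) and among peaks of at least 36 bp (91.5% against 89.1%, Fisher's exact test, p = 0.00457). With midpoints within 500 bp the shares were 89.9% on 3R and 89.0% on the other arms (Fisher's exact test, p = 0.279). When both lists were cut at their own median score, a partner had to pass the cut as well. 3R was then lower, with 66.6% against 71.0% (Fisher's exact test, p = 0.0185). That cut kept 41.1% of the replicate 2 peaks on 3R and 51.9% of those on the other large arms. Its part in the lower share was not tested.

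Sharing varied along the arm. By 1 Mb bin, the replicate 1 share ran from 77.1% (3 to 4 Mb) to 97.3% (25 to 26 Mb). In replicate 2 it ran from 53.8% (11 to 12 Mb) to 74.3% (1 to 2 Mb). Over 28 bins the number of combined regions had a rho of 0.50 with the replicate 1 share and 0.60 with the replicate 2 share. Combined regions are made of shared peaks, so these measures are not independent.

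Sharing rose steeply with peak width. In replicate 1, 56 of 122 peaks narrower than the 36 nt read length were shared (45.9%, 36.8 to 55.2), and all 171 peaks of 800 bp or more were (97.9 to 100). In replicate 2, 11 of 222 peaks under 36 bp were shared (4.95%, 2.50 to 8.69), and 248 of 250 peaks of 800 bp or more (99.2%, 97.1 to 99.9). A wide peak has more bases in which to overlap. When midpoints within 500 bp were counted instead, the shares in the narrowest and widest classes were 62.3% and 97.1% in replicate 1, and 21.2% and 98.0% in replicate 2. Median scores across the 6 width classes stayed between 1.63 and 1.72 in replicate 1 and between 1.93 and 2.26 in replicate 2.

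**Figure D4:**
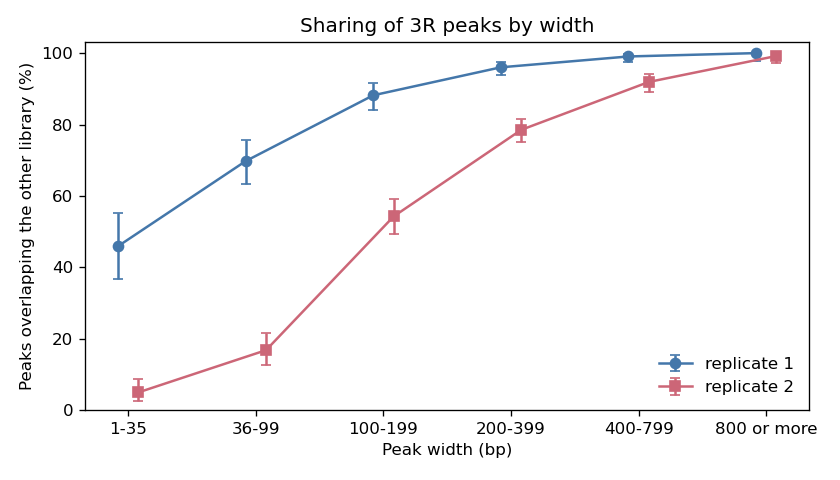
Share in percent of the 3R peaks of each library that overlap a peak of the other, by peak width in bp, with exact binomial 95% intervals (replicate 1 circles, replicate 2 squares). The share climbs from 45.9% to 100% in replicate 1 and from 4.95% to 99.2% in replicate 2.

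The median distance from an unshared peak to the nearest one in the other list was 514 bp for replicate 1 and 1679 bp for replicate 2. How near an arbitrary position on the arm would lie was not tested, so the counts below are descriptive. Of the 197 unshared peaks of replicate 1 on 3R, 133 (67.5%) were within 1 kb of a replicate 2 peak and 186 (94.4%) within 10 kb. Of the 816 of replicate 2, 333 (40.8%) were within 1 kb and 704 (86.3%) within 10 kb. Their median widths were 64 and 89 bp in replicates 1 and 2, against 303 and 385.5 bp for shared peaks. The highest-scoring unshared peaks of replicate 1 were 13 and 12 bp wide, Rep1_ORC5738 at 14495834 to 14495846 (3.71) and Rep1_ORC5756 at 14821417 to 14821428 (3.34). Rep1_ORC5012, at 3350119 to 3350185 (67 bp, score 3.28), came next. In replicate 2, Rep2_ORC6230 (294 bp) was followed by Rep2_ORC6696 at 7520621 to 7520655 (35 bp, score 6.67), which lay in no gap of at least 100 kb. After it came Rep2_ORC7010 at 11373966 to 11374164 (199 bp, score 6.16), in the gap between 11302211 and 11491779.

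Most combined regions paired a single peak of each library. This held for 1353 of 1475 regions (91.7%). In 101 regions several replicate 1 peaks met 1 replicate 2 peak, in 18 the reverse held, and in 3 both libraries had several. At the 1353 pairs the median shift was 50 bp at the start and 47 bp at the end, and the overlap made up a median 66.6% of the joint span (quartiles 47.5 and 81.5%). No pair had identical limits, and 376 (27.8%) agreed within 50 bp at both ends. The replicate 2 peak was wider in 941 pairs (69.5%), and in 607 the replicate 1 peak lay wholly inside it. Combined regions of 3R had a median width of 446 bp (95% order-statistic interval 422 to 464), with quartiles of 267.5 and 727 bp. On the other large arms the median was 437 bp (428 to 447).

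The 193 regions of 1 kb or more made up 32.9% of the covered length. The widest was ORC4544, at 13419996 to 13424829, whose peaks measured 4834 bp in replicate 1 and 4760 bp in replicate 2. It scored 2.50 and 4.66. ORC4753, at 17121444 to 17124537, was also a single peak in each library, with 3004 and 3094 bp. The other 3 of the widest 5 were single peaks in replicate 2 and broken in replicate 1. ORC4539, at 13226794 to 13230324, had replicate 1 peaks of 2689 and 385 bp. ORC4585, at 14068051 to 14071089, had 973, 170 and 1028 bp, and ORC4891, at 19754940 to 19757850, had 285 and 773 bp. ORC4891 scored 1.55 in replicate 1 and 1.28 in replicate 2, and its combined score ranked 1424 of 1475. Of the 193, 73 were broken in replicate 1 and 14 in replicate 2. Over all 1475 regions, 101 were broken in replicate 1 alone, 18 in replicate 2 alone and 3 in both. Among regions under 1 kb, 31 were broken in replicate 1. A combined region spans all of its peaks, so one that joins several peaks is wider by construction.

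Scores on 3R were lower than on the other large arms, in both libraries. Of the 1475 combined regions, 41.2% (38.6 to 43.7) reached the median score of the whole list, 2.06, against 52.0% (50.6 to 53.4) of the 4979 regions on the other large arms (Fisher's exact test, two-sided, p = 2.81e-13, adjusted p = 8.44e-13 over 6 tests). In replicate 1 the shares at or above that list's median were 43.9% and 50.4% (Fisher's exact test, p = 1.31e-06, adjusted p = 2.62e-06). In replicate 2 they were 41.1% and 51.9% (Fisher's exact test, p = 1.07e-19, adjusted p = 6.45e-19). The size was modest: median scores on 3R and on the other arms were 1.68 and 1.74 in replicate 1, and 2.13 and 2.31 in replicate 2. Without X, whose scores were the highest of the 4, the other 3 arms had 49.7% of combined regions at or above the median (Fisher's exact test, p = 3.05e-08). This test was chosen after the scores had been seen. The tests of scores also treat neighbouring peaks and regions as independent, and their p-values do not measure the spread between arms.

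The lower scores were spread along 3R. In 26 of its 28 bins the median combined score lay below the median of the other large arms, 2.08. On 2L this was so in 14 of 23 bins, on 2R in 11 of 22, on 3L in 16 of 25 and on X in 5 of 23. In replicate 1 alone it was so in 22 of 28 bins of 3R and in replicate 2 alone in 27 of 28. Bin medians of the combined score on 3R ran from 1.75 to 2.25. How the caller scaled its score against the control is not stated, and the part of such scaling in this difference was not tested.

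At the shared regions replicate 2 scored higher than replicate 1 almost throughout the arm. It did so at 1333 of 1475 regions (90.4%). The median ratio was 1.28 (95% order-statistic interval 1.27 to 1.30) and quartiles of 1.14 and 1.47. The median ratio by 1 Mb bin stayed between 1.23 and 1.38. Scores of the replicates had a Spearman's rho of 0.68 across the 1475 regions and a Pearson's r of 0.76 on the log2 scale. These are descriptions across regions and not across replicates. Region width had little relation to score, with a rho of -0.11 for the combined list.

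The highest-scoring regions were narrow. The 147 regions with the highest combined scores had a median width of 306 bp, and each of the top 5 was under 250 bp. After ORC4516, ORC4168, ORC5094 and ORC4304 came ORC4104, at 5040087 to 5040221 (135 bp), with scores of 4.74 in replicate 1 and 9.53 in replicate 2. The ratio of the replicate 2 to the replicate 1 score ran from 1.53 to 2.06 over these 5, which were ranked by the mean of both scores. Among regions with the most unequal scores, chosen after seeing them, ORC3989 at 2391244 to 2391461 had 5.54 in replicate 1 and 2.69 in replicate 2. ORC5255, at 27057001 to 27057115, had 2.36 and 7.07.

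**Figure D5:**
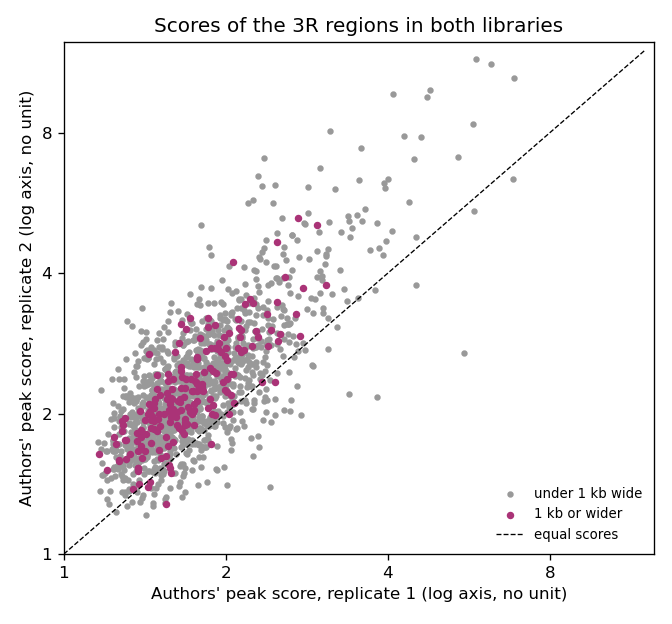
Authors' peak score (no unit, log axes) of each of the 1475 combined regions of 3R in replicate 1 and replicate 2, with regions of 1 kb or more in purple. Most points (1333) lie above the dashed line of equal scores, and the highest scores belong to regions under 1 kb.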

How the data were processed

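Peak lists of 2 ORC2 chromatin immunoprecipitation libraries and a combined list were analysed. Per the labels' protocols, fragments of 150 to 200 bp were selected and sequenced as single ends, with 36 nt reads per the series' design text. Peaks were called with PeakSeq on FlyBase release 5.1, per the file headers. Aligner, thresholds and control were not given in the sources used here. A deposited score of the authors has no stated scale and was used as given. Starts and ends were read as 1-based. Each combined region's limits equal the outer limits of its overlapping replicate peaks (1475 of 1475 on 3R).

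Regions were assigned to bins by midpoint. The arm length was the end of its last peak. A region's replicate score was the mean over its peaks. Gaps were at least 100 kb. Exact Poisson, binomial, conditional and Fisher's tests and order-statistic intervals came from scipy 1.17.1 (Python 3.11.15, pandas 2.3.3, numpy 2.4.6), and overlap, merging and gap routines were tested on simulated lists. The 6 p-values against the other large arms were Benjamini-Hochberg adjusted together.

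The members, stretches and alternatives were chosen with earlier results of these data known. By rule, the text names the 5 highest-scoring and 5 widest regions, the 10 longest gaps with regions bordering them, the 3 fullest and 3 emptiest bins, the 3 fullest windows, the first and last regions and the 3 longest runs. No gene or sequence is given, since only a gene table of release 6 was used here and positions were not converted. The alternatives were the single lists, their union, score and width filters, and other overlaps, gap minima and stretch limits.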

Additional observations from a re-analysis of the deposited data

Results flagged for a closer look

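Peaks were also called on 3RHet, the heterochromatic scaffold of the same arm, which the comparisons on 3R do not use. Replicate 1 had 38 peaks there and replicate 2 had 67. No control library was at hand to set them against. In each replicate 9 peaks were shared, 23.7% of replicate 1 (95% exact binomial interval 11.4 to 40.2) and 13.4% of replicate 2 (6.33 to 24.0). The median width of the 9 combined regions was 1214 bp.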

How the results depend on the processing

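No paired analysis was possible because a single group has peak lists. Of 58 alternative values, 38 were labelled unchanged. They kept their direction and side of the threshold or, for values without a test, stayed within the interval or spread of the value reported. Counts without an interval stayed within a factor of 1.5. Taken singly, the replicate lists gave 1787 and 2312 regions on 3R, density ratios to the other large arms of 0.946 (exact conditional test, p = 0.039) and 0.965, ratios for the first 2 Mb of 1.23 to 1.33, ratios for 12 to 13 Mb of 1.22 to 1.29 (excluding equality in replicate 1 alone), 43 to 48 gaps, 22.6 to 27.6% of the arm in gaps, and 41.1 to 43.9% of regions at or above the median score. The union of the lists gave 2488 regions, a density ratio of 0.944 (exact p = 0.0106) and 21.5% of the arm in gaps, and a ratio for 12 to 13 Mb of 1.27 (1.04 to 1.53). Regions at or above the median score numbered 607 and gave a density ratio of 0.766 and 72 gaps, with 45.6% of the arm in gaps. Their median width was 402 bp, with a score ratio of 1.38 and a rho of 0.41. Stretch ratios were 1.19 (0.873 to 1.58) for the first 2 Mb and 1.60 (1.09 to 2.26) for 12 to 13 Mb. The interval of the former then included equality and that of the latter no longer did. This filter removes more regions on 3R by construction. Gap minima of 50 and 200 kb gave 142 and 11 gaps, with 50.5% and 9.49% of the arm. Moving the 12 to 13 Mb window 0.5 Mb towards the telomere turned its ratio to 0.769. The moved window leaves out the 100 kb with 22 regions and takes in the whole gap from 12977941 to 13203297. Single-pair regions had a median width of 415 bp. The replicate 1 share with a partner was 89.9% by midpoints (no longer past the threshold). It was 66.6% with both lists cut at their median score, where 3R fell below the other arms. The cause was not tested. Unknown depth limits what an absent peak means.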
